A study of Mus musculus with 35 samples.

Results

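The flavin monooxygenase genes Fmo1, Fmo2 and Fmo5 and the P450 reductase gene Por were followed in the lung of mice at 2 times of day. The mice were with or without a treatment meant to deplete neutrophils. These 4 genes were taken by symbol from the 22211 genes of the deposited table, and all 4 passed the filter on low values that left 16786 genes for testing. The 35 libraries came from the perfused left lung of male C57BL/6 mice aged 7 to 9 weeks, given injections under the skin on 2 days and killed on the next. The groups were MRP8-Cre;iDTR-flox mice given DT (diphtheria toxin) at 10 ng per g at ZT16 (3 mice) or ZT4 (4 mice), wild-type mice given the anti-Ly6G antibody 1A8 at 3 µg per g at ZT16 or ZT4 (7 each), and wild-type mice given a control IgG at 3 µg per g at ZT16 or ZT4 (7 each). ZT16 and ZT4 are 16 and 4 h after lights on. Tissue was taken at 1 clock time, and the ZT16 mice lived in cabinets with an inverted cycle of 12 h light, so time of day and housing cannot be told apart. The anti-Ly6G and control groups each held 4 mice of a September 2017 batch and 3 of a July 2017 batch. All DT mice came from an April 2018 batch with no control mice, so toxin, genotype and batch cannot be told apart, and their levels were not tested against the other groups. MRP8-Cre acts in myeloid cells, mainly neutrophils, where it switches on the toxin receptor of the iDTR allele.

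Flavin monooxygenases sit in the endoplasmic reticulum and use NADPH and a bound flavin to put an oxygen atom onto nitrogen or sulphur atoms of drugs, toxins and dietary amines, without a partner protein. Cytochrome P450 enzymes of the same membrane cannot take electrons from NADPH themselves, and P450 reductase, the protein of Por, hands them over. Fmo2 is the flavin monooxygenase best known from mammalian lung, Fmo1 acts on a broad range of substrates in mouse liver, kidney and lung, and Fmo5 is unusual in oxidising mainly ketones and esters.

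Values are the deposited normalised expression values. Their read depth is unknown, and no source used here says whether they are per length, so levels are compared between groups of 1 gene and not between genes. No value is 0, each library had 15351 to 15802 genes at or above 1, and the 10 highest genes took 6.87% to 10.1% of a library's sum. The markers of lung epithelium were high everywhere, with a summed level of 24262 to 45044 for 8 club cell genes and of 23585 to 32213 for 10 genes of alveolar type 2 cells. The summed level of 9 neutrophil genes was 23.1 to 38.7 in anti-Ly6G and 26.3 to 91.2 in control mice at ZT16, and 28.4 to 62.2 in anti-Ly6G and 49.1 to 782 in control mice at ZT4. In DT mice it was 30.6 to 60.2 at ZT16 and 37.4 to 43.1 at ZT4. The medians in anti-Ly6G and control mice were 29.9 and 58.3 at ZT16, and 43.5 and 64.7 at ZT4. Of 8 neutrophil genes tested, 0 were called for anti-Ly6G against control at either time, beside 0% of all genes. Differences are log2 changes ± SE from limma on log2(value + 0.5), ZT16 minus ZT4 unless said otherwise, with p-values adjusted by Benjamini-Hochberg over all 16786 genes and a gene called at an adjusted p under 0.05. The ± of a level is the SD over mice.

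Fmo1 and Fmo2 are neighbours in the flavin monooxygenase cluster of chromosome 1, whereas the other members stand alone. In the GENCODE annotation of build GRCm38, Fmo1 (ENSMUSG00000040181) lies at chr1:162829561-162866610 and Fmo2 (ENSMUSG00000040170) at chr1:162874317-162898726, both on the minus strand. Fmo5 (ENSMUSG00000028088) is on the plus strand at chr3:97628804-97655282, and Por (ENSMUSG00000005514) on the plus strand at chr5:135670033-135735326. All 4 are protein-coding, and no exon of theirs overlaps an exon of another gene.

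The sequence before the RefSeq start (GRCm38.p6) is shown for the 3 members with an entry, since the genes differ in how they vary with time: Fmo2 had the largest time difference in every treatment, and Por the smallest in wild-type mice. The Fmo2 stretch is chr1:162898759-162899008 on the minus strand, the Fmo5 stretch chr3:97628769-97628829 and the Por stretch chr5:135688895-135689035, both on the plus strand. The Fmo2 stretch is the 250 bases before the start. The Fmo5 and Por stretches are the first 61 and 141 of those 250 bases, so the bases nearest their starts are not shown, and 26 of the 61 Fmo5 bases lie in an exon of the GENCODE annotation. The Por stretch lies inside the GENCODE extent of Por, which begins at 135670033, with 0 bases in an exon, so it is not sequence before that gene. Capitals mark matches to any of 8 motifs searched on both strands.
Fmo2: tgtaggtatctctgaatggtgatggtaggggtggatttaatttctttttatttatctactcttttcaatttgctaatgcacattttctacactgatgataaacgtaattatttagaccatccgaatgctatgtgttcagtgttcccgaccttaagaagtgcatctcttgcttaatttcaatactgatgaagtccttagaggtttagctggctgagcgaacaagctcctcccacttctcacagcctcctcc
Fmo5: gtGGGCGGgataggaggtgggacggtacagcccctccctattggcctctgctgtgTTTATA
Por: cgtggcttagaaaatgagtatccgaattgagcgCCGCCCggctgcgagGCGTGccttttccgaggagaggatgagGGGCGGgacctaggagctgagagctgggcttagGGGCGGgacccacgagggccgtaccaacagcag

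The motifs were searched over 250 bases before and 50 after each start. In the window of the Fmo2 start shown no match was found to the E-box CACGTG, the D-box TTATGTAA or TTACGTAA, the nuclear receptor core AGGTCA, the glucocorticoid receptor core AGAACA, the xenobiotic response core GCGTG, the antioxidant response core TGACNNNGC, the GC box GGGCGG or the TATA box TATAAA. A second RefSeq start of Fmo2, whose window overlaps the first, held AGAACA from position -125 and AGGTCA from position -9. The Fmo5 window held GGGCGG from -248 and the reverse of TATAAA from -195, and the Por window held GGGCGG or its reverse at 4 places and GCGTG or its reverse at 3. GC content was 41.3% and 47.7% in the windows of Fmo2, 56% in that of Fmo5 and 67.3% in that of Por, beside a median of 52.7% over 32851 promoters. These motifs are common: of all promoters of that length, 35.7% hold GGGCGG, 32.4% GCGTG, 19.0% AGAACA, 16.3% AGGTCA, 13.6% TATAAA, 12.4% TGACNNNGC, 7.15% CACGTG and 1.06% a D-box.

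Fmo2 had the largest time difference of the 4 genes, being about 2-fold higher at ZT16 in the wild-type groups and less so in DT mice. In DT mice Fmo2 stood at 1705, 1286 and 1713 at ZT16, against 1162, 1147, 1182 and 1156 at ZT4. In anti-Ly6G mice it had a lowest, median and highest value of 1757, 2233 and 2522 at ZT16, against 794, 881 and 1075 at ZT4. In control mice the values were 1970, 2106 and 2271 at ZT16, against 912, 1057 and 1174 at ZT4. Every ZT16 mouse of the 3 treatments was above every ZT4 mouse of its own treatment, although 1 DT mouse at ZT16 was near the ZT4 range. Among all genes, such complete separation upward was seen for 10.9% in DT, 3.12% in anti-Ly6G and 1.36% in control mice.

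The change of Fmo2 was 0.42 ± 0.11 in DT mice (1.34-fold, adjusted p = 0.00927), 1.28 ± 0.077 in anti-Ly6G mice (2.42-fold, adjusted p = 1.62e-14) and 1.02 ± 0.077 in control mice (2.03-fold, adjusted p = 7.68e-12). By p-value Fmo2 ranked 9th of 16786 genes in control and 6th in anti-Ly6G mice, and 939th in DT mice. The call in DT mice rests on the mice sampled. Without the first ZT16 DT mouse the change was 0.35 (adjusted p = 0.0644) and without the third it was 0.35 (adjusted p = 0.0619), while without the second, the low one, it was 0.56 (adjusted p = 0.00294). Over all alternatives to this result the adjusted p ran from 0.000898 to 0.0644.

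**Figure D1:**
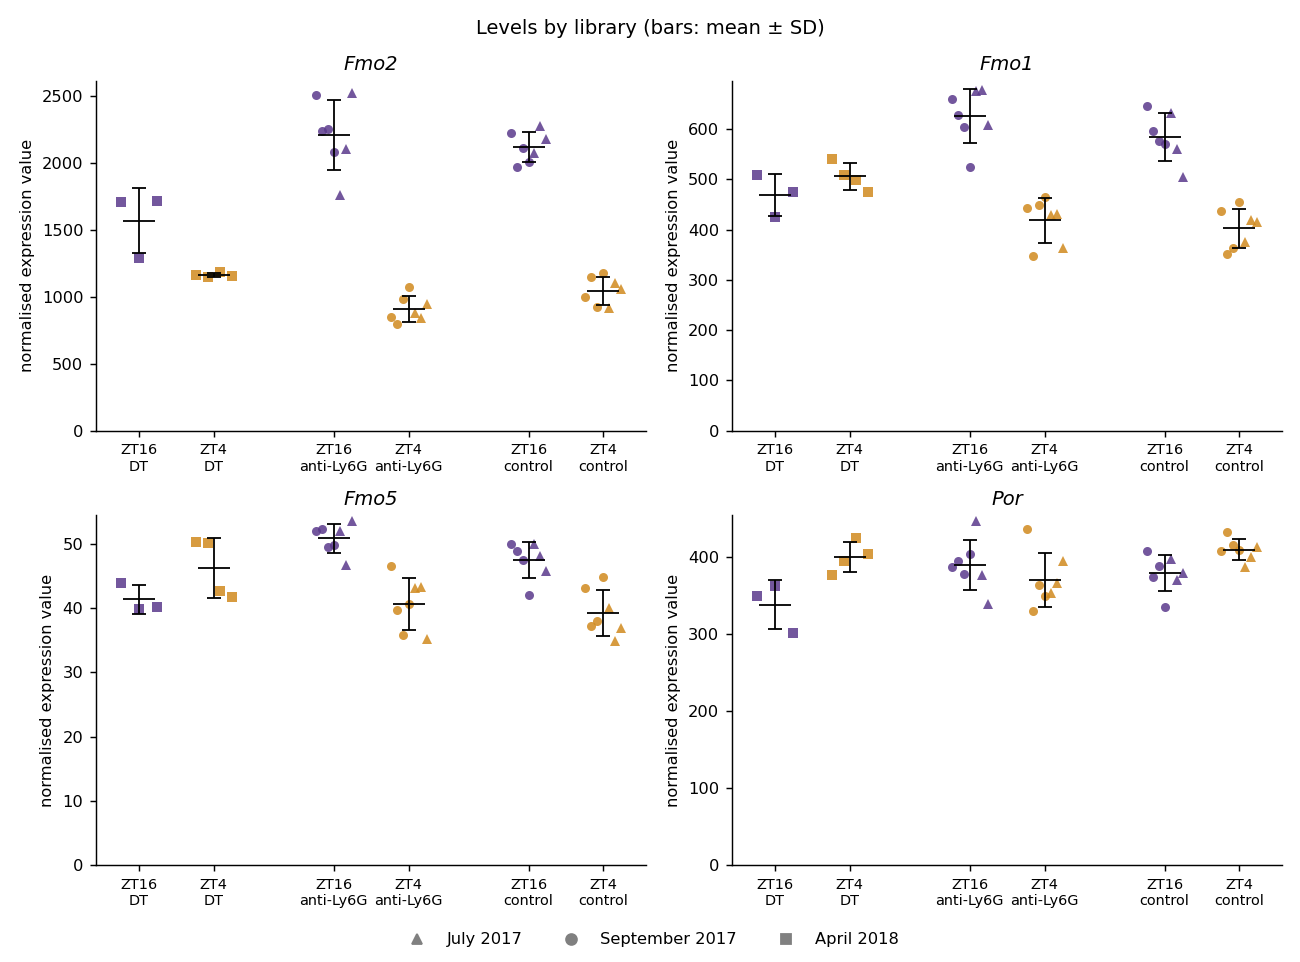
Deposited normalised expression values of Fmo2, Fmo1, Fmo5 and Por in each library, by group, with the mean and SD as bars and the batch as the marker shape. Fmo2 is at or above 1757 in all ZT16 mice given anti-Ly6G or control IgG and at or below 1182 in all ZT4 mice, and the ZT16 DT mice lie between 1286 and 1713.

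Fmo1, the broad-range enzyme, was also higher at ZT16 in wild-type mice, by about 1.5-fold, but not in DT mice. DT mice had Fmo1 at 508, 425 and 474 at ZT16, against 540, 508, 499 and 475 at ZT4. Anti-Ly6G mice had a lowest, median and highest Fmo1 of 525, 627 and 677 at ZT16, against 347, 430 and 466 at ZT4. Control mice had 504, 576 and 646 at ZT16, against 352, 415 and 455 at ZT4. The times did not overlap in the anti-Ly6G or control mice, whereas in DT mice they did, with 2 of 3 ZT16 mice below all ZT4 mice. Fmo1 changed by 0.58 ± 0.069 in anti-Ly6G mice (1.5-fold, adjusted p = 1.99e-07) and by 0.54 ± 0.069 in control mice (1.45-fold, adjusted p = 1.95e-06). In DT mice the difference was -0.11 ± 0.099 (adjusted p = 0.486, 95% interval -0.31 to 0.09).

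Fmo5, the ketone-oxidising member, followed the same order with a smaller difference. Its DT values were 43.9, 39.9 and 40.2 at ZT16, against 50.3, 50.1, 42.6 and 41.7 at ZT4. Its lowest, median and highest values were 46.8, 52.0 and 53.5 at ZT16 against 35.2, 40.7 and 46.5 at ZT4 in anti-Ly6G mice, and 42.0, 48.1 and 50.01 at ZT16 against 34.9, 38.0 and 44.8 at ZT4 in control mice. The times were separate in anti-Ly6G mice, met through 1 low ZT16 mouse in controls, and overlapped in DT mice with 2 of 3 ZT16 mice below all ZT4 mice. Fmo5 rose by 0.33 ± 0.061 in anti-Ly6G mice (1.25-fold, adjusted p = 0.000239) and by 0.27 ± 0.061 in control mice (1.21-fold, adjusted p = 0.00356). In DT mice its difference was -0.15 ± 0.088 (adjusted p = 0.238, 95% interval -0.33 to 0.02).

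Por, which feeds electrons to the P450s, was not called higher in any treatment. In DT mice Por was at 350, 363 and 302 at ZT16, against 377, 395, 425 and 404 at ZT4. The lowest, median and highest Por values were 340, 388 and 447 at ZT16 against 330, 364 and 436 at ZT4 in anti-Ly6G mice, and 335, 379 and 408 at ZT16 against 388, 410 and 433 at ZT4 in control mice. All 3 ZT16 DT mice were below all ZT4 DT mice, as were 15.3% of all genes. Such complete separation downward was seen for 2.06% of genes in anti-Ly6G and 1.02% in control mice. The wild-type ranges overlapped, although 4 of 7 control mice at ZT16 lay below all control mice at ZT4.

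Por fell by 0.24 ± 0.080 in DT mice (adjusted p = 0.0346). Its difference was 0.07 ± 0.056 in anti-Ly6G mice (adjusted p = 0.381, 95% interval -0.04 to 0.19) and -0.11 ± 0.056 in control mice (adjusted p = 0.209, 95% interval -0.227 to -0.000381). A two-sided exact permutation test of Por alone within batch gave p = 0.00857 for control mice, unadjusted and 1 of 20 such tests run for the 4 genes. The DT call is not firm: the change was -0.22 after equal-sum scaling (adjusted p = 0.0631) and -0.17 after quantile normalization (adjusted p = 0.161). It was also lost when any of 5 single DT mice was left out, with changes of -0.16 to -0.27 and adjusted p-values of 0.0549 to 0.227, and over all alternatives the adjusted p ran from 0.0226 to 0.227.

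In terms of background, 15.3% of all genes were called in DT, 20.9% in anti-Ly6G and 9.04% in control mice. Upward calls alone took 5.3% of genes in DT, 10.6% in anti-Ly6G and 4.65% in control mice, and downward calls 9.98%, 10.4% and 4.38% in those 3 treatments. The same shares are the background of the counts of marker and pathway genes called for time below. Of the 4 genes, 1 was called higher and 1 lower in DT mice, 3 higher in anti-Ly6G mice and 3 higher in control mice. The median change over all genes was -0.01 in DT, -0.02 in anti-Ly6G and 0.00 in control mice.

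For Fmo2 the order of group means ran from 2206 ± 265 in ZT16 anti-Ly6G, 2117 ± 111 in ZT16 control, 1568 ± 245 in ZT16 DT, 1162 ± 14.8 in ZT4 DT and 1044 ± 104 in ZT4 control to 909 ± 97.3 in ZT4 anti-Ly6G mice (n = 7, or 3 and 4 for DT at ZT16 and ZT4). For Fmo1 the DT groups stood in the middle, with 469 ± 41.6 at ZT16 and 506 ± 26.5 at ZT4, between 625 ± 53.4 and 583 ± 47.4 in ZT16 anti-Ly6G and control mice and 418 ± 44.6 and 402 ± 39.0 in ZT4 anti-Ly6G and control mice. Fmo5 had the same order as Fmo1, with 41.3 ± 2.24 at ZT16 and 46.2 ± 4.67 at ZT4 in DT mice, 50.8 ± 2.27 and 40.6 ± 4.10 at ZT16 and ZT4 in anti-Ly6G mice, and 47.4 ± 2.82 and 39.3 ± 3.57 at ZT16 and ZT4 in control mice. Por had its lowest mean, 339 ± 32.2, in ZT16 DT mice, and the means of the other 5 groups lay between 371 ± 34.9 and 410 ± 13.9. In these orders the anti-Ly6G and control groups of 1 time did not differ in the test across all genes, and steps that involve a DT group were not tested. The April batch holds only DT mice, and whether batches were aligned is not stated. The place of the DT groups in these orders therefore cannot be told apart from batch or such an alignment.

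Whether the time difference itself differed between DT and wild-type mice was tested as the difference between time differences. Against control mice it was lower in DT mice by -0.65 ± 0.12 for Fmo1 (adjusted p = 0.00114), by -0.60 ± 0.13 for Fmo2 (adjusted p = 0.00376) and by -0.43 ± 0.11 for Fmo5 (adjusted p = 0.00869). For Por it was -0.13 ± 0.097 (adjusted p = 0.387, 95% interval -0.33 to 0.07). These 3 of 4 calls stand beside 13.8% of all genes called in either direction, 4.93% called higher and 8.86% called lower. The comparison sets mutant mice of April 2018 beside wild-type mice of 2017.

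Against anti-Ly6G mice all 4 time differences were lower in DT mice, beside 19.1% of all genes called, 7.44% higher and 11.6% lower. The difference was -0.86 ± 0.13 for Fmo2 (adjusted p = 5.63e-05), -0.69 ± 0.12 for Fmo1 (adjusted p = 0.000208), -0.48 ± 0.11 for Fmo5 (adjusted p = 0.0022) and -0.32 ± 0.097 for Por (adjusted p = 0.0206). The Por value was not called after equal-sum scaling (-0.26, adjusted p = 0.0629), after quantile normalization (-0.20, adjusted p = 0.167) or without the third ZT16 DT mouse (-0.24), and its adjusted p over all alternatives ran from 0.00691 to 0.167. Both comparisons use the same DT mice, so they are not separate pieces of evidence.

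**Figure D2:**
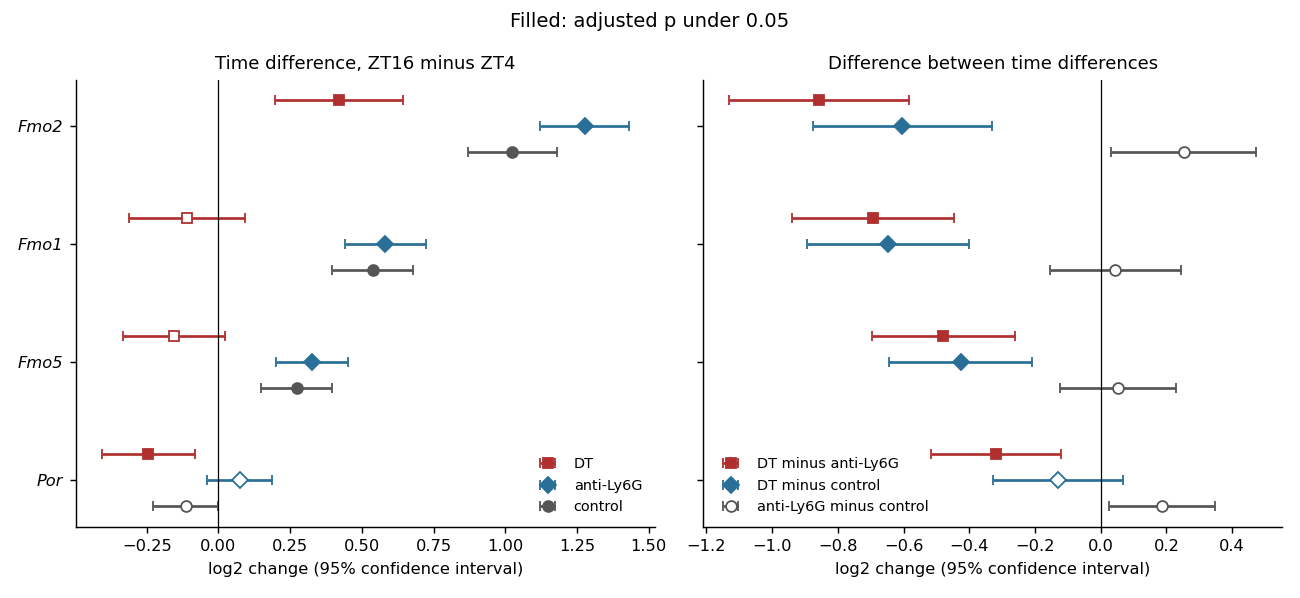
Left, log2 difference ZT16 minus ZT4 of each gene in DT, anti-Ly6G and control mice. Right, the difference of those differences between treatments. Points are limma estimates with 95% confidence intervals, filled where the adjusted p is under 0.05; in the left panel the 3 Fmo genes lie right of 0 in anti-Ly6G and control mice, and in DT mice only Fmo2 does, at 0.42.

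Cell markers also moved with time, in DT and in wild-type mice. All 8 club cell genes were higher at ZT16 in DT mice, as were 6 of 8 ciliated cell genes. Of 8 endothelial genes 5 were lower (Cdh5, Kdr, Pecam1, Tek and Tie1), of 10 alveolar type 2 genes 4 and of 9 fibroblast genes 3. After quantile normalization 2 of these calls were lost, those of the club cell gene Scgb1a1 and of the type 2 cell gene Etv5 (adjusted p = 0.0601). That scaling gave Scgb1a1 a change of 3.55e-15, as for a gene set to the same value in every library. It therefore cannot decide about Scgb1a1. The summed endothelial level was 3066 to 3423 at ZT16 and 4016 to 4633 at ZT4 in DT mice, so the times did not overlap, but 3333 to 4319 at ZT16 and 3266 to 3980 at ZT4 in anti-Ly6G mice and 3280 to 3883 at ZT16 and 3252 to 4081 at ZT4 in control mice. The summed fibroblast level was 3472 to 4388 at ZT16 and 4621 to 5052 at ZT4 in DT mice, 3974 to 4684 and 4500 to 5131 at those times in anti-Ly6G mice, and 3969 to 4658 and 4314 to 5350 in control mice. The summed club cell level was 37299 to 45044 at ZT16 and 24262 to 31754 at ZT4 in DT mice, whereas in control mice it was 28504 to 37166 and 28755 to 37972. The lists called in DT mice also held calls in wild-type mice. In anti-Ly6G mice, club cell genes had 2 higher and 0 lower calls, ciliated 0 and 2, and endothelial 2 and 1. Alveolar type 2 genes had 2 and 2 there, and fibroblast genes 1 and 2. In control mice the counts were 1 and 1, 0 and 0, 1 and 1, 0 and 1, and 0 and 2, in that order. Lymphocyte genes were lower at ZT16 in wild-type mice, and mesothelial genes in anti-Ly6G mice. Called lower at ZT16 were 0 of 8 T cell genes in DT, 5 in anti-Ly6G and 3 in control mice, 1, 5 and 2 of 8 B cell genes in those treatments, and 1, 4 and 5 of 8 NK cell genes. The summed NK cell level was 23.0 to 34.5 at ZT16 and 34.6 to 64.6 at ZT4 in anti-Ly6G mice and 19.5 to 29.5 at ZT16 and 32.1 to 44.0 at ZT4 in control mice, with no overlap in either. The summed T cell level was 24.9 to 38.9 at ZT16 and 36.7 to 57.6 at ZT4 in anti-Ly6G mice and 20.1 to 34.7 at ZT16 and 30.0 to 44.6 at ZT4 in control mice. The summed B cell level was 43.1 to 94.5 at ZT16 and 74.5 to 165 at ZT4 in anti-Ly6G mice and 32.6 to 87.1 at ZT16 and 49.5 to 132 at ZT4 in control mice. Of 7 mesothelial genes 6 were lower in anti-Ly6G and 1 in control mice, while in DT mice 1 was higher and 1 lower. After quantile normalization 3 of these T, B and NK cell calls in anti-Ly6G and 4 in control mice were lost. No marker in the table is at 0 in any library, but neither is any other gene, so this does not show which cell types were present. The part of these shifts in the values of the 4 genes was not tested, and in whole lung fewer cells of a type and less RNA per cell cannot be told apart.

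The antibody itself was followed by no called change in the 4 genes. Under limma 0% of all genes were called for anti-Ly6G against control at ZT16 or ZT4, with 701 and 1185 genes at an unadjusted p under 0.05 at those times. At ZT16 the differences were 0.10 ± 0.069 for Fmo1, 0.05 ± 0.077 for Fmo2, 0.10 ± 0.061 for Fmo5 and 0.04 ± 0.056 for Por, and every 95% interval reached at most 0.24. At ZT4 Fmo2 was at 909 ± 97.3 in anti-Ly6G mice and 1044 ± 104 in control mice (n = 7 each), a difference of -0.20 ± 0.077 (adjusted p = 0.657). Por at ZT4 was at 371 ± 34.9 in anti-Ly6G mice and 410 ± 13.9 in control mice, a difference of -0.15 ± 0.056 (adjusted p = 0.657). For Fmo1 and Fmo5 at ZT4 the differences were 0.05 ± 0.069 and 0.05 ± 0.061. Exact two-sided permutation within batch gave unadjusted p-values of 0.0343 for Fmo2 at ZT4, 0.0257 for Por at ZT4 and 0.0357 for Fmo5 at ZT16, all among the same 20 tests.

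The time difference also did not pass the test for a dependence on the antibody, where 0% of all genes were called and 1007 had an unadjusted p under 0.05. In anti-Ly6G minus control mice it was 0.25 ± 0.11 for Fmo2 and 0.19 ± 0.079 for Por (adjusted p = 0.812 for each), with 95% intervals of 0.03 to 0.47 and 0.03 to 0.35. It was 0.04 ± 0.098 for Fmo1 and 0.05 ± 0.087 for Fmo5.

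Within each batch of wild-type mice the 3 Fmo genes kept their direction over time. In September the Fmo2 change was 1.30 in anti-Ly6G and 0.98 in control mice, and in July it was 1.24 in anti-Ly6G and 1.09 in control mice. Fmo1 changed by 0.51 and 0.58 in September and by 0.68 and 0.48 in July, in anti-Ly6G and control mice in that order. The Fmo5 change was 0.33 in anti-Ly6G and 0.21 in control mice in September, the second of which was not called (adjusted p = 0.167), and 0.32 and 0.36 in July. Por gave 0.09 and -0.15 in September and 0.05 and -0.07 in July. September minus July, the time difference was -0.04 ± 0.10 for Fmo1, -0.03 ± 0.11 for Fmo2, -0.08 ± 0.089 for Fmo5 and -0.02 ± 0.083 for Por. None of these passed, at unadjusted p-values of 0.391 to 0.813, beside 0.0715% of all genes called, 0.0417% higher and 0.0298% lower. Levels of the batches were close as deposited: over 16786 genes the SD of the September minus July shift over its SE was 0.516. Most shifts were thus small beside their own SE. No source used here says whether the authors aligned the batches, and this was not tested. If they did, the close levels of the batches were built in.

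**Figure D3:**
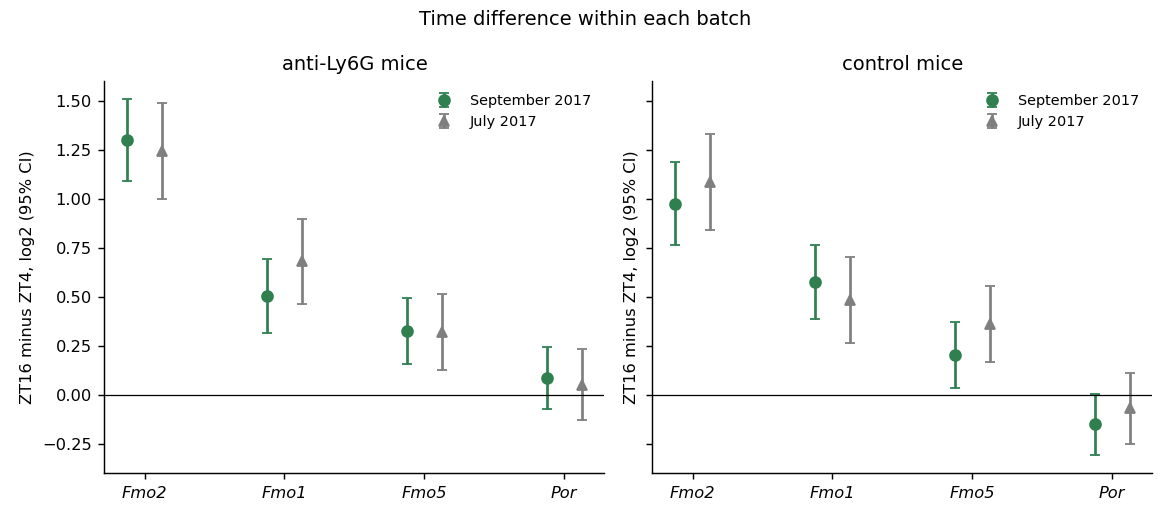
Log2 difference ZT16 minus ZT4 of each gene within the September and July batches, in anti-Ly6G and control mice, with 95% confidence intervals from the fit with 10 cells of time, treatment and batch. Fmo2 lies between 0.98 and 1.30 in all 4 cases and Por between -0.15 and 0.09.

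The coefficient of variation within a group was 5.25% to 10.7% for Fmo1, 1.28% to 15.6% for Fmo2, 4.46% to 10.1% for Fmo5 and 3.39% to 9.52% for Por. The widest was that of Fmo2 in ZT16 DT mice and the narrowest that of Fmo2 in ZT4 DT mice.

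Of the other flavin monooxygenases listed, Fmo4 and Fmo6 flank Fmo1 and Fmo2 on chromosome 1. Fmo4, Fmo1, Fmo2 and Fmo6 lie in this order on the minus strand within 144 kb, and Fmo9 was not found in the table by that symbol. Fmo6 was near the lower limit of the data, with means of 2.30 at ZT16 and 1.23 at ZT4 in DT, 2.33 and 1.08 in anti-Ly6G and 2.10 and 1.14 in control mice. It rose in anti-Ly6G (0.87, adjusted p = 0.000693) and control mice (0.63, adjusted p = 0.0226), and its difference in DT mice was 0.68 (adjusted p = 0.0684). Fmo4 had means of 5.24 to 6.44 in all groups, and its differences of 0.05 to 0.15 did not pass in any treatment. For Fmo4 and Fmo6 the time difference was not called as differing between DT and wild-type mice. The values were 0.05 to 0.10 in DT minus control and -0.19 to 0.01 in DT minus anti-Ly6G mice.

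**Figure D4:**
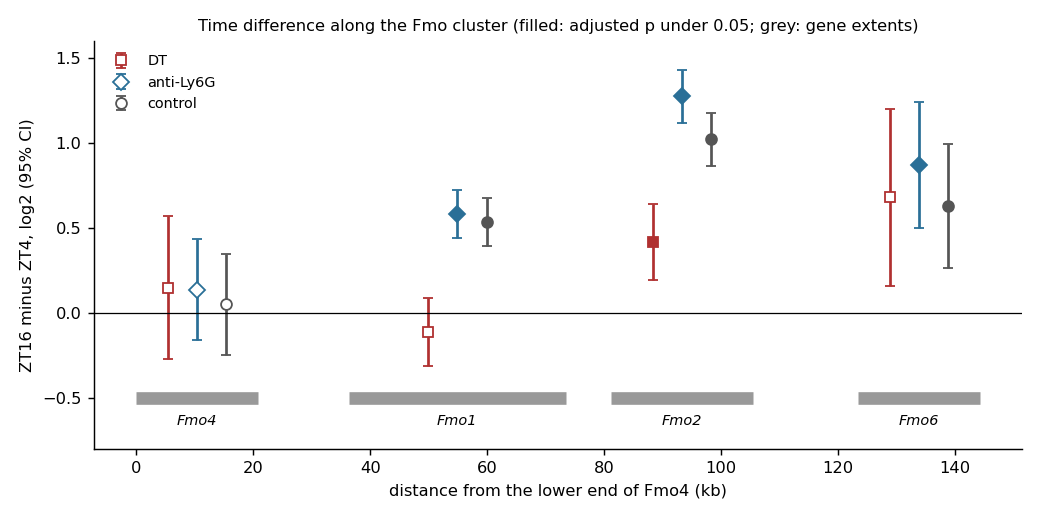
Log2 difference ZT16 minus ZT4 of Fmo4, Fmo1, Fmo2 and Fmo6, against distance in kb from the lower end of Fmo4, in DT, anti-Ly6G and control mice, with 95% confidence intervals, filled where the adjusted p is under 0.05, and the gene extents in grey. Fmo2 has the largest difference of the 4 genes in anti-Ly6G and control mice. In DT mice Fmo1 lies at -0.11, Fmo2 at 0.42 and Fmo6, not called, at 0.68.

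Por delivers electrons to the P450s of families 1 to 4, of which 18 were listed and tested. Called higher at ZT16 were 3 in DT, 4 in anti-Ly6G and 4 in control mice, beside 5.3%, 10.6% and 4.65% of all genes. Called lower were 1, 3 and 1 in those treatments, beside 9.98%, 10.4% and 4.38% of all genes. In both wild-type treatments the higher genes were Cyp2a5, Cyp2b10, Cyp3a13 and Cyp4b1. Cyp4b1, a P450 that activates toxins in the lung, was at 867 ± 43.3 at ZT16 and 580 ± 43.0 at ZT4 in anti-Ly6G mice (0.58, adjusted p = 7.62e-09) and at 846 ± 51.1 at ZT16 and 628 ± 55.7 at ZT4 in control mice (0.43, adjusted p = 4.24e-06). In DT mice it was at 728 ± 84.9 at ZT16 and 696 ± 51.4 at ZT4 (0.06, adjusted p = 0.679). Its time difference was lower in DT than in control mice (-0.37, adjusted p = 0.015), a call lost after quantile normalization (-0.24, adjusted p = 0.0767).

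Cyp2b10, a drug-inducible P450, rose in anti-Ly6G (0.64, adjusted p = 2.5e-05) and control mice (0.56, adjusted p = 0.00034), and Cyp2a5, which works on nicotine and coumarin, rose in DT (0.80, adjusted p = 0.0313), anti-Ly6G (0.99, adjusted p = 0.000154) and control mice (0.63, adjusted p = 0.0217). Both have close relatives in the genome between which reads may be split. Cyp3a13 rose in anti-Ly6G (0.62) and control mice (0.54). The lower genes were Cyp4v3 (-0.22 in anti-Ly6G and -0.36 in control mice), Cyp2j9 (-0.64 in DT and -0.62 in anti-Ly6G mice) and Cyp4f16 (-0.24 in anti-Ly6G mice). In DT mice Cyp2f2, a P450 of club cells, rose by 0.29 (adjusted p = 0.047, and 0.16 with adjusted p = 0.157 after quantile normalization). Cyp2s1 rose there by 0.39 (adjusted p = 0.0228). A link of these 2 changes to the club cell genes was not tested. The exons of Cyp2f2, Cyp2s1 and Cyp4v3 overlap those of other genes. The median over the 18 genes was 0.17 in DT, 0.07 in anti-Ly6G and 0.07 in control mice, beside -0.01, -0.02 and 0.00 over all genes.

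Other takers of electrons from P450 reductase showed no called change: 0 of 4 genes (Hmox1 and Hmox2, the haem oxygenases, Sqle and Cyp51 of sterol synthesis) were called by limma in any treatment. At an unadjusted p under 0.05 there were 2, Sqle (-0.20) and Cyp51 (-0.21), both in control mice. In the cytochrome b5 branch, which can give P450s an electron by another route, 2 of 7 genes were higher in DT, 2 in anti-Ly6G and 1 in control mice. Cyb5a, the microsomal cytochrome b5, was at 247 ± 19.0 at ZT16 and 214 ± 6.04 at ZT4 in DT mice (0.21, adjusted p = 0.0171), at 250 ± 12.1 and 214 ± 10.7 in anti-Ly6G mice (0.22, adjusted p = 0.000248) and at 249 ± 6.50 and 222 ± 14.2 in control mice (0.17, adjusted p = 0.00888, and 0.14 with adjusted p = 0.0566 after quantile normalization). Pgrmc2, a haem-binding partner of P450s, rose by 0.20 in DT and 0.22 in anti-Ly6G mice.

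Of the other diflavin reductases, relatives of Por by their paired flavins, 4 of 5 were tested. Nos2, the inducible nitric oxide synthase, fell in all 3 treatments. It was at 3.24 ± 0.87 at ZT16 and 8.57 ± 0.88 at ZT4 in DT mice (-1.30, adjusted p = 2.6e-05), at 3.67 ± 0.64 and 7.62 ± 1.22 in anti-Ly6G mice (-0.96, adjusted p = 2.6e-06) and at 3.64 ± 0.63 and 6.40 ± 1.47 in control mice (-0.72, adjusted p = 0.000357). Mtrr, which keeps methionine synthase active, rose by 0.35 in anti-Ly6G mice (adjusted p = 0.000844). In the mitochondrial P450 chain, where a ferredoxin and its reductase take the place of Por, Fdx1l (0.36) and Fdxr (0.40) were higher in DT mice and Fdx1l was lower in control mice (-0.32, adjusted p = 0.0188). Other genes overlap the exons of Fdx1l, and its DT call was lost after quantile normalization (0.34, adjusted p = 0.0561).

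**Figure D5:**
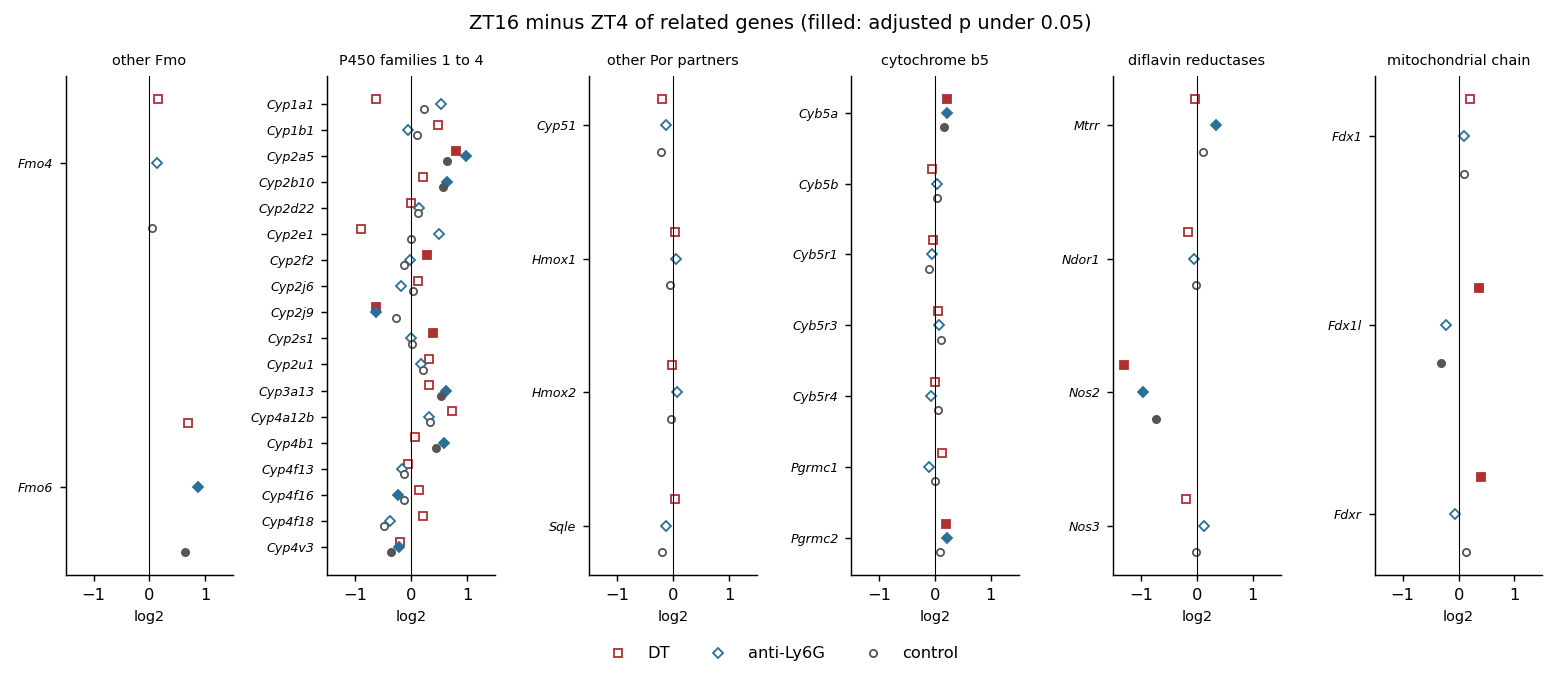
Log2 difference ZT16 minus ZT4 of the genes tested in 6 lists related to flavin monooxygenases and P450 reductase, in DT, anti-Ly6G and control mice, filled where the adjusted p is under 0.05. Cyp2a5, Cyp2b10, Cyp3a13 and Cyp4b1 are filled right of 0 in anti-Ly6G and control mice, Nos2 is filled left of 0 in all 3 treatments and the 4 other partners of Por are open throughout.

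Among 12 receptors and regulators of xenobiotic enzymes, 1 was higher in DT, 6 in anti-Ly6G and 2 in control mice, and 0, 1 and 1 were lower. Dbp, a clock-driven factor, was at 19.8 ± 10.1 at ZT16 and 61.6 ± 22.7 at ZT4 in anti-Ly6G mice (-1.67, adjusted p = 0.0014) and at 17.6 ± 11.7 and 77.2 ± 33.4 in control mice (-2.19, adjusted p = 0.000135), but at 34.5 ± 7.98 and 39.1 ± 23.7 in DT mice (0.03, adjusted p = 0.976). Dbp shares 539 exon bases with a protein-coding gene on the opposite strand, Sphk2, and no source used here says whether reads were counted by strand. Its relatives Tef (0.52) and Hlf (0.59) rose in anti-Ly6G mice. Nfe2l2, the antioxidant response factor, rose in anti-Ly6G (0.26) and control mice (0.25). Arnt, the partner of the aryl hydrocarbon receptor, rose by 0.21 in anti-Ly6G and by 0.15 in control mice, the second of which was lost after equal-sum scaling (adjusted p = 0.0935) and quantile normalization (adjusted p = 0.0675). In anti-Ly6G mice Ppara (0.49) and Rxra (0.15) also rose, and Rxra was lost under the same scalings (adjusted p = 0.0673 and 0.0687). Nr1i2, the xenobiotic receptor PXR, rose by 0.92 in DT mice at a level of 2.44 at ZT16 against 1.06 at ZT4.

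Likeness of pattern was measured as Pearson's r of log2 values over all 35 libraries, which share the difference between times, so it is given as a description. Fmo2 was most like Gsta3, a glutathione transferase gene (r = 0.954, Spearman's rho = 0.897), and Cry1, a repressor of the clock (r = 0.953, rho = 0.900), followed by Mettl7a1, Abca8a and Cys1 (r = 0.936 to 0.938). Fmo1 was most like Kank4 (r = 0.920, rho = 0.921), Gnao1, Epas1, Ptprb and Mturn. Fmo5 was most like Ptprb (r = 0.852, rho = 0.866) and Cpeb3, with Fmo1 in the third place (r = 0.828, rho = 0.845), then Numa1 and Epas1. For Por the highest values were lower, led by Sh2b2 (r = 0.698, rho = 0.641) and then Slc41a1, Slc26a2, Got2 and Plvap.

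After the mean of each time, treatment and batch was taken away, other genes came first. The deviations of Fmo2 went with those of Klf9, a zinc finger transcription factor (r = 0.921, rho = 0.934), and of Klf13, Snrk, Kctd12 and Cttnbp2nl. Those of Fmo1 went with Ptprb (r = 0.787, rho = 0.814), Notch4, Ednrb, Cdh5 and Flt4, of which Cdh5 is in the endothelial list above. Those of Fmo5 were led by Mkl2 (r = 0.785, rho = 0.783), with Tln2, Amotl2 and Camsap3 next, and those of Por by Osgin1 (r = 0.797, rho = 0.689), with Chac1, Rgs2, P2rx7 and Fam32a next.

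Between the members, Fmo1 and Fmo2 had r = 0.851 over all libraries and 0.345 after group and batch means were taken away, Fmo1 and Fmo5 had 0.828 and 0.484, and Fmo2 and Fmo5 had 0.678 and -0.06. Por with Fmo1, Fmo2 and Fmo5 had -0.01, -0.13 and 0.08 over all libraries and 0.12, -0.31 and 0.10 after the means were taken away.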

How the data were processed

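The deposited table of normalised expression values, handled as a signal per gene that is never negative, was used as the authors gave it. Per the labels' protocols, the Ovation Single Cell kit amplified the samples ahead of a TruSeq library preparation. Per the submitters' processing notes, the tools included RSEM 1.2.20, kallisto 0.43.1, CASAVA 1.8.2 and cutadapt, and the build was GRCm38; which tool made the table is not stated there. How the values were normalised, whether batches were adjusted and how deep the libraries were are details not given in the sources used here, so no counting interval is printed. The values are not counts, so the test planned for normalised values was used.

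Table columns matched a group and batch of the labels but no single sample, so libraries are numbered in table order and each was taken as 1 mouse. A gene was tested if 3 or more libraries reached a value of 1, which held for 16786 genes and not for 5425. Models were fitted in R 4.3.3 by limma 3.58.1 (trend option) to log2(value + 0.5), using the 35 libraries together, group means and a term for September relative to July. Batch-specific values came from a fit with a mean for each of 10 cells of time, treatment and batch. Single genes were also tested by exact two-sided permutation within batch, over 1400 arrangements for 7 against 7 mice and 35 for DT mice, where the smallest p possible is 0.00143 and 0.0286. The fit was tested on simulated data. Of the table's IDs 22100 of 22211 were found in GENCODE M21, which is of the same build.

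The members and lists were chosen with earlier results of these data known. Named genes are the 4 members, listed pathway genes that passed in a time comparison, and for each member the 5 genes of highest r over all libraries and the 5 of highest r after group means were taken away. Some genes that this rule names are not reported here. Cell markers are named as counts and sums. Alternatives were other pseudocounts, filters and scalings, no batch term, no trend, only the groups compared, single batches, no DT libraries, permutation and each library left out.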

Additional observations from a re-analysis of the deposited data

Results flagged for a closer look

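The time difference, ZT16 minus ZT4, differed between treatments in 7 of the tests on the 4 genes, and these are the results a reader may want to look at again. In DT minus control mice the difference was -0.65 for Fmo1, -0.60 for Fmo2 and -0.43 for Fmo5. In DT minus anti-Ly6G mice it was -0.86 for Fmo2, -0.69 for Fmo1, -0.48 for Fmo5 and -0.32 for Por. The 4 genes were also tested in anti-Ly6G minus control mice, where none was called. Among all genes, 13.8% were called in DT minus control, 19.1% in DT minus anti-Ly6G and 0% in anti-Ly6G minus control mice. Each of the 7 passed limma's test of the difference itself, and all rest on 7 DT mice of a single batch and genotype. The Por result is not firm, being uncalled in 3 of 45 alternatives, with an adjusted p of up to 0.167. In the 20 combinations of a gene and a group with 4 or more mice no library stood apart from the others of its group. The ZT16 DT group, with 3 mice, was not checked, although all 7 results use it. Fmo2 stood there at 1705, 1286 and 1713.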

How the results depend on the processing

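Of 484 values of the 4 genes recomputed under 14 other settings, 468 kept their direction and side of the threshold, 8 lost the call and 4 turned sign. The other 4 passed only by the unadjusted p of exact permutation. Of 1400 values with 1 library left out, 1384 kept both, 8 lost the call and 8 turned sign. Por was not called for time in DT mice after equal-sum scaling (-0.22), after quantile normalization (-0.17) or with only the groups compared (-0.24), nor for DT minus anti-Ly6G after the first 2 of these (-0.26 and -0.20), so 1 and not 2 of the 4 genes was called in DT mice under these 3 settings. Fmo5 was not called with July alone (0.32 in anti-Ly6G and 0.36 in control mice) or September alone (0.21 in control mice), fits that hold fewer mice. By exact permutation, 4 values not called by limma had an unadjusted p under 0.05. They were Por in control mice (-0.11), Fmo2 (-0.20) and Por (-0.15) for anti-Ly6G minus control at ZT4, and Fmo5 at ZT16 (0.10). These are not calls, which need an adjusted p under 0.05 over all genes. Uncalled differences turned sign in July for Fmo2 in anti-Ly6G minus control at ZT16 (-0.0457) and for the Fmo5 time difference in anti-Ly6G minus control (-0.038), and in September for Fmo5 at ZT4 (-0.00531) and the Fmo1 time difference (-0.0697). The cause was not tested. With 1 library left out, time in DT mice ran from 0.35 to 0.56 for Fmo2 and from -0.30 to -0.16 for Por, and 0 to 2 genes were called. DT minus anti-Ly6G ran from -0.37 to -0.24 for Por, the Fmo1 time difference in anti-Ly6G minus control from -0.000299 to 0.087, and September minus July from -0.089 to 0.000509 for Fmo1, from -0.092 to 0.039 for Fmo2 and from -0.069 to 0.030 for Por. Of 165 list genes no call turned sign under other scalings, and up to 11 were lost and up to 13 gained per comparison. No scaling moved the median of all genes by over 0.1. No paired analysis was possible because the table's columns carry no replicate numbers of the labels. Read depth is unknown and limits low genes such as Fmo6 most.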
